A study of Penaeus japonicus with 16 samples.

Results

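The prophenoloxidase system and the heme peroxidases of kuruma shrimp (Penaeus japonicus) were represented by 25 of the 13875 non-control probes of a custom oligonucleotide array. A probe was taken as a member where its description held the words phenoloxidase, peroxinectin, chorion peroxidase, dual oxidase or nitric oxide synthase. The members were 9 prophenoloxidases, 1 phenoloxidase activating factor, 6 chorion peroxidases, 5 dual oxidases, 1 dual oxidase maturation factor, 1 nitric oxide synthase and 2 proteins described as partners of nitric oxide synthase. No description held the word peroxinectin. Of the 25, 21 had been designed on assembled contigs and 4 on deposited messenger RNA sequences (AB073223.1, AB065371.1, AB617654.1 and AB485762.1), none of which was found in the reference gene table. The names below are the descriptions of the array design, which the signals cannot check, and no probe or transcript sequence was used here.

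Transcript signals had been measured with a single colour on 16 arrays, 4 of hemocytes and 3 each of gills, lymphoid organ, hepatopancreas and muscle, on 2 slides of 8 arrays. The shrimp were untreated and looked healthy, with no strain, age or challenge given in the labels, so the 5 tissues were compared only with one another. Whether each array held RNA of a different animal is not given in the labels, and p-values therefore measured only the spread between these samples. A level is the log2 of a probe's signal over the 75th percentile of all non-control probes on its array, so that 0 stands for that percentile. Because probes differ in brightness, tests compared tissues within a probe, and a probe's mean level only decided which member of a role is shown in full.

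In crustaceans, recognition of microbial sugars starts a chain of clip-domain serine proteases that ends with the cleavage of prophenoloxidase, an inactive copper enzyme, into phenoloxidase. Phenoloxidase oxidises phenols to quinones, which polymerise into melanin at wounds and around microbes, and serine protease inhibitors hold the chain in check. Hemocytes, the circulating blood cells, store and release these proteins, and the lymphoid organ, which filters hemolymph in penaeid shrimp, holds many of them. Dual oxidases are membrane enzymes that make hydrogen peroxide, nitric oxide synthase makes the signalling gas nitric oxide, and chorion peroxidases were named in insects for hardening the eggshell.

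Before the members, the tissue labels were set against marker lists. Hemocyte markers (transglutaminases, astakines and a hemocyte homeostasis protein, 8 probes) were higher in hemocytes than the average of the rest for 7 of 8 probes, hepatopancreas markers for 39 of 43 tested in hepatopancreas, muscle markers for 17 of 23 in muscle and the carbonic anhydrases chosen for gills for 3 of 5 in gills. Lower in their own tissue were 0, 1, 2 and 1 of these probes, in the same order. Only 5 of the 8 carbonic anhydrases were tested, and 2 of the 5 were higher in hepatopancreas. Over all tested probes, 18.8% were higher in hemocytes, 20.5% in hepatopancreas, 20.4% in muscle and 9.15% in gills. No probe was described as a penaeidin, and no marker had been chosen for the lymphoid organ. The summed scaled signal of the hemocyte markers was 933 to 2073 on hemocyte arrays, 37.6 to 145 on gill arrays, 65.2 to 363 on lymphoid organ arrays, 22.4 to 77.1 on hepatopancreas arrays and 5.98 to 44.8 on muscle arrays. In all 3 gill and all 3 lymphoid organ libraries all 8 were detected, so none of the defining markers was at background there. Arrays had 41.0 to 82.3% of probes detected. The 44 hepatopancreas marker probes were sought by the words chymotrypsin, trypsin, amylase, cellulase, endoglucanase and hemocyanin, and 15 of them were hemocyanins. The arrays gills 1, hemocytes 4 and muscle 1 stood apart from the others of their tissues in detecting 37, 34 and 35 of 44 hepatopancreas marker probes, against 18 to 28 on the other gill, hemocyte and muscle arrays. Results resting on them are also given without all 3.

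**Figure D1:**
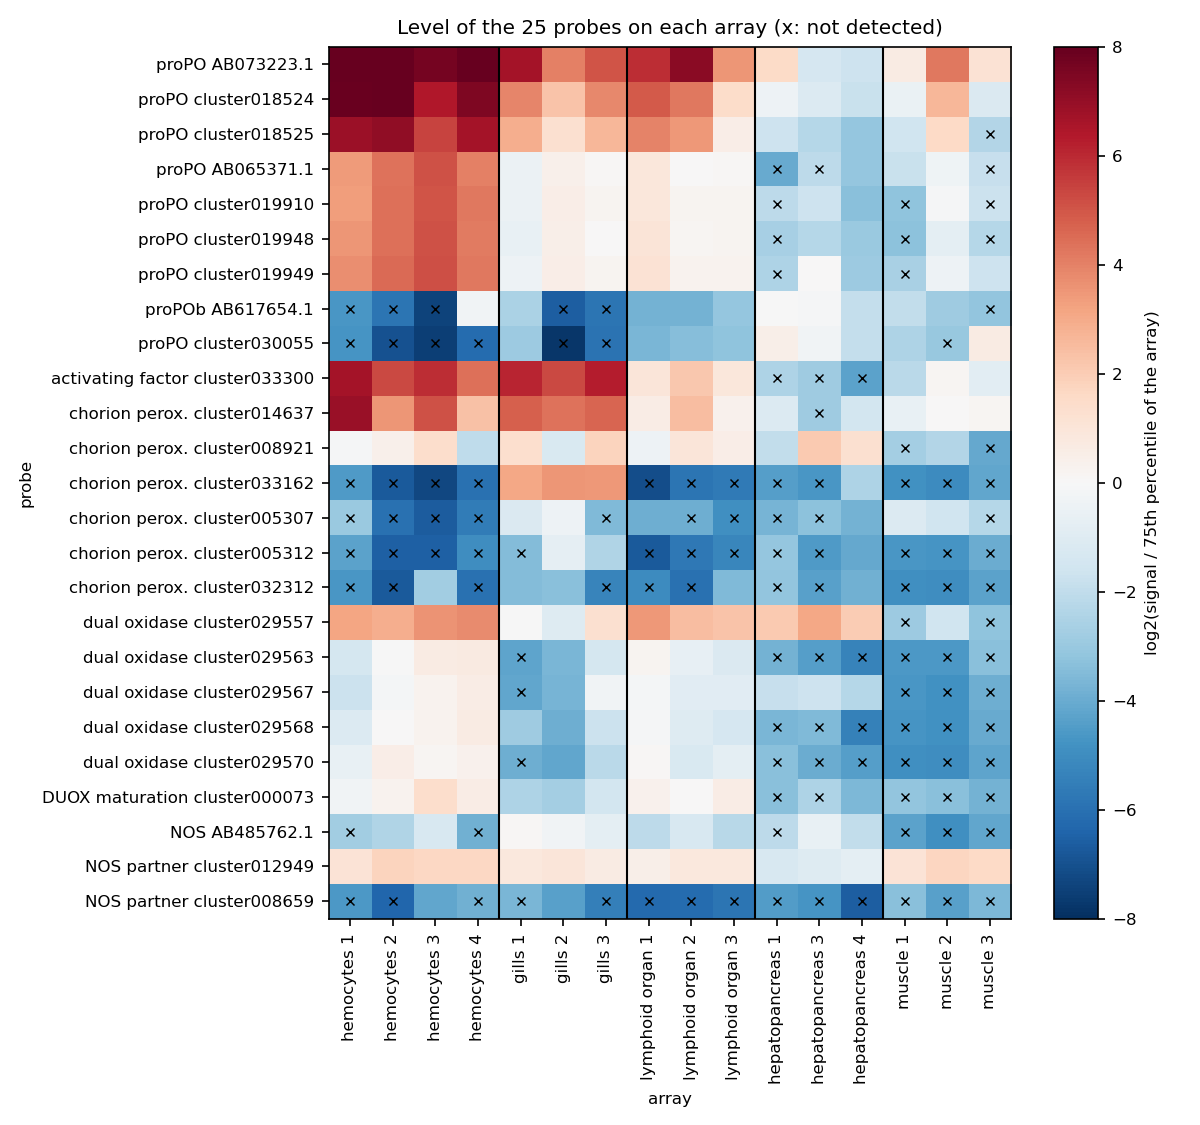
The level of each of the 25 probes (rows) on each of the 16 arrays (columns, grouped by tissue), as log2 of signal over the 75th percentile of the array; crosses mark spots not detected, and colours end at 8 and -8, which AB073223.1 exceeds on 3 hemocyte arrays. Of the 9 prophenoloxidase probes, 7 are darkest red in hemocytes, AB617654.1 and cluster030055 are mostly undetected there, and the chorion peroxidase cluster033162 is coloured red on the 3 gill arrays alone.

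Most members had their highest mean in hemocytes. Of the 21 tested members, those detected on every array of at least 1 tissue, 14 had their highest tissue mean in hemocytes, 5 in gills and 2 in hepatopancreas, and none in lymphoid organ or muscle. The matching shares over all tested probes were not counted. Prophenoloxidase and dual oxidase probes made up most of the 14, and several of them may share target sequence, so the 14 are not separate evidence. In the fit over all 10317 tested probes, a probe was called at a Benjamini-Hochberg adjusted p under 0.05 and at least 2-fold (limma). Hemocytes were higher than the mean of the other 4 tissues for 16 of the 21 tested members and lower for 2, against a background of 18.8% of all tested probes higher and 27.1% lower. Their median log2 difference was 3.08, against -0.041 over all tested probes. Because a member enters the test through the tissue in which it is detected, these counts describe the tested members and not the 4 left out.

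In gills, 4 tested members were higher and 0 lower (background 9.15% and 8.16%), and 3 were lower there at an unadjusted p under 0.05 in the same limma fit. In the lymphoid organ, 5 were higher and 1 lower (background 6.42% and 2.82%). Hepatopancreas had 3 higher and 14 lower (20.5% and 23.4%), and muscle had 1 higher and 17 lower (20.4% and 18.4%). Every one of the 21 tested members was called in at least 1 tissue, as were 75.1% of all tested probes. Within slide 1 alone, hemocytes were higher for 14 and muscle lower for 12 members. Within slide 2 alone, which holds 1 muscle array, hemocytes were higher for 14. Without gills 1, hemocytes 4 and muscle 1, hemocytes were higher for 15 members and muscle lower for 13. The shares over all probes in these separate fits are not given, so these counts stand without a background.

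Enriched in a tissue means a level 4-fold or more over every other tissue singly, with an adjusted p under 0.05 each time. Of the tested members, 7 prophenoloxidases were enriched in hemocytes (4.07% of all tested probes were) and the chorion peroxidase cluster033162 was enriched in gills (2.64%), and 19.6% of all tested probes were enriched in any tissue. The lymphoid organ detected 20 of the 25 members on every array, hemocytes 17, gills 16, hepatopancreas 9 and muscle 5. In muscle 10 members were detected on no array, against 5 in hepatopancreas, 4 in hemocytes, 3 in the lymphoid organ and 0 in gills. Over all probes, single arrays detected 69.0 to 82.3% in the lymphoid organ, 60.5 to 77.2% in gills and 47.4 to 72.8% in hemocytes. Hepatopancreas arrays detected 49.0 to 75.5% and muscle arrays 41.0 to 52.1%. Whether the members differ from all probes in detection was not tested.

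Between pairs of tissues, 129 of 210 member tests were called, against 31.6% over all probes. Hemocytes were higher than gills for 13 tested members and lower for 2 (background 12.4% and 14.1%), and higher than the lymphoid organ for 9 and lower for 0 (6.7% and 14.8%), with 1 lower at an unadjusted p under 0.05. They were higher than hepatopancreas for 14 and lower for 3 (26.7% and 25.9%), and higher than muscle for 17 and lower for 1 (19.9% and 21.9%). The 9 members higher in hemocytes than in the lymphoid organ were the 7 enriched prophenoloxidases, the activating factor and the chorion peroxidase cluster014637. Gills were higher than the lymphoid organ for 3 and lower for 4 (4.83% and 4.32%), higher than hepatopancreas for 11 and lower for 3 (16.8% and 16.9%), and higher than muscle for 10 and lower for 1 (13.9% and 14.8%). The lymphoid organ was higher than hepatopancreas for 14 and lower for 1 (14.6% and 10.1%), and higher than muscle for 16 and lower for 0 (16.4% and 15.6%), with 0 lower at an unadjusted p under 0.05 too (limma). Hepatopancreas was higher than muscle for 4 and lower for 3 (21.6% and 24.1%).

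**Figure D2:**
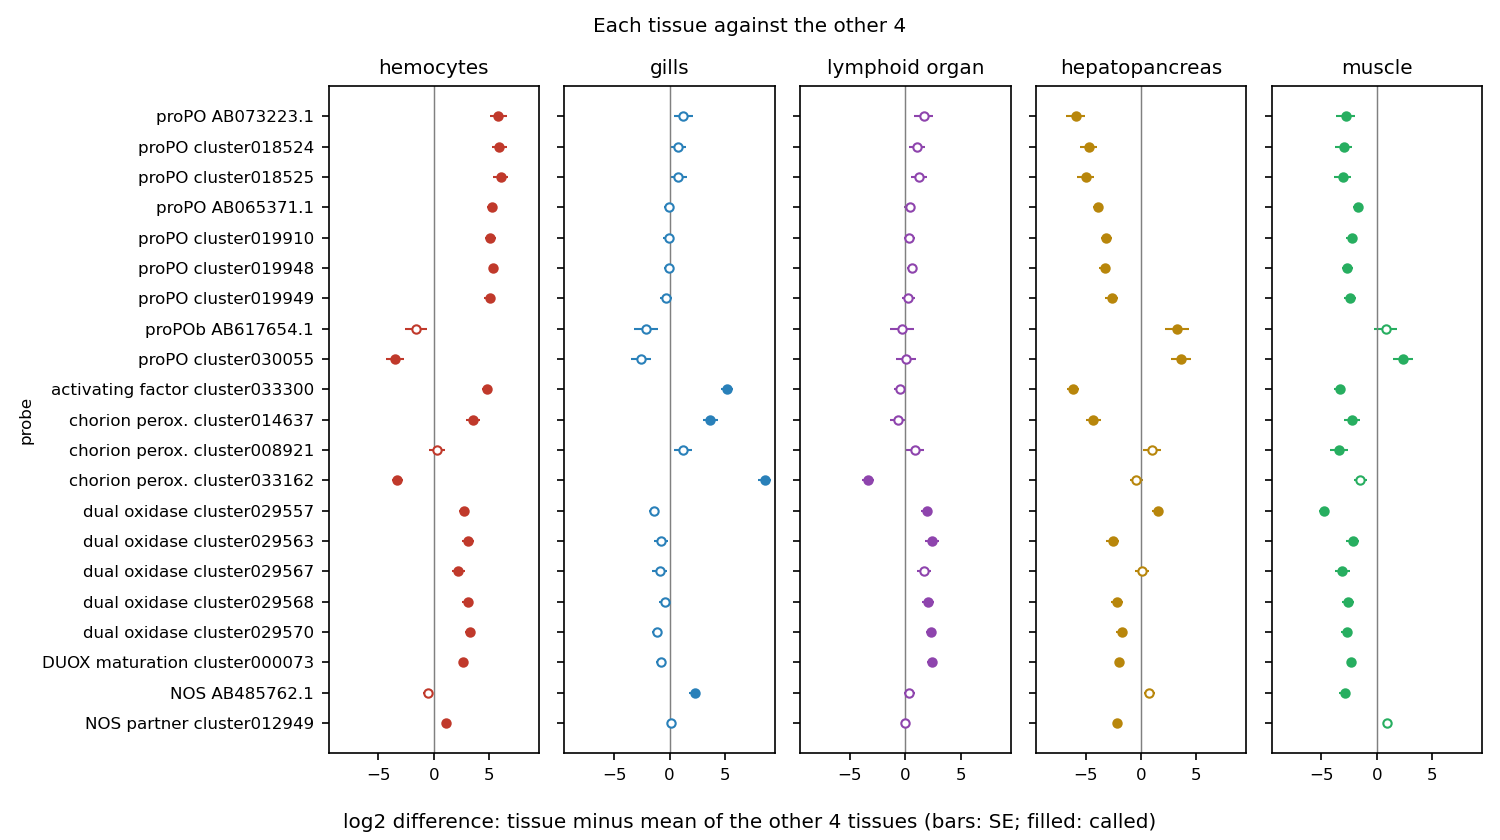
Log2 difference of each tissue from the mean of the other 4 for the 21 tested members (rows), with the standard error as a bar and filled points for called differences. Points of 7 prophenoloxidases, the activating factor and the dual oxidases lie right of 0 in hemocytes, and 17 points lie left of 0 as called in muscle.

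The 9 prophenoloxidase probes fell into 3 patterns over the 16 arrays, a grouping made after the values were seen and described without a test of its own. AB073223.1 went with the contigs cluster018524 and cluster018525, AB065371.1 with cluster019910, cluster019948 and cluster019949, and AB617654.1, named prophenoloxidase b, with cluster030055. The root mean square difference between 2 probes, each centred on its own mean over the 16 arrays, was 0.15 to 0.84 log2 units within the first group and 0.30 to 0.64 within the second. Between the first and the second group it was 1.23 to 2.04, and between either and the third 4.07 to 5.68. It was 1.79 between the 2 probes of the third, inside the range between the first 2 groups, so these 2 are only loosely alike. On hemocytes 4 AB617654.1 read -0.26 and cluster030055 -6.14 (not detected), and on muscle 3 they read -3.19 (not detected) and 0.66. The description of cluster030055 names no b form, and prophenoloxidase b pair is only a label for the 2 probes. The contig names numbered cluster018524 and cluster018525 as transcripts 26153 and 26157, and cluster019910, cluster019949 and cluster019948 as transcripts 31408, 31425 and 31433, of an assembly locus with 87117 transcripts. That locus also held cluster030055, the 5 dual oxidases and the chorion peroxidase cluster014637, 12 members in all, so belonging to it does not mark off a group. Probes of 1 pattern may share target sequence, which was not tested, and their calls are not separate evidence.

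The prophenoloxidase AB073223.1 stood at 9.93, 8.84, 7.67 and 9.10 on hemocyte arrays 1 to 4. On gill arrays 1 to 3 it stood at 6.63, 4.01 and 5.03, and on lymphoid organ arrays 1 to 3 at 5.94, 7.22 and 3.56. Hepatopancreas arrays 1, 3 and 4 gave 1.56, -1.36 and -1.68, and muscle arrays 1 to 3 gave 0.66, 4.19 and 1.13. All hemocyte arrays lay above every array of the other tissues, gills and lymphoid organ overlapped, and muscle 2 lay within their range. Hemocytes were 56.2-fold above the average of the rest (log2 difference 5.81, SE 0.77, adjusted p = 1.5e-05). They were 12.7-fold above gills (adjusted p = 0.0119), 9.94-fold above the lymphoid organ (adjusted p = 0.027), 119-fold above muscle (adjusted p = 4.79e-05) and 667-fold above hepatopancreas (adjusted p = 1.29e-06). Gills and lymphoid organ did not pass the test against each other (log2 difference -0.35, SE 1.08, adjusted p = 0.912), nor did hepatopancreas and muscle (-2.49, SE 1.08, adjusted p = 0.0713).

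The partner contigs followed it. cluster018524 stood at 7.92, 8.0, 6.41 and 7.44 on the hemocyte arrays, and at 3.94, 2.26 and 3.81 in gills. In the lymphoid organ it stood at 4.89, 4.24 and 1.49, in hepatopancreas at -0.40, -1.07 and -1.76 and in muscle at -0.55, 2.65 and -1.18. As for AB073223.1, hemocytes 3, lymphoid organ 3 and gills 2 were the lowest arrays of their tissues and muscle 2 the highest of its own. cluster018525 stood at 6.82, 7.07, 5.43 and 6.64 in hemocytes, 2.93, 1.28 and 2.67 in gills and 3.98, 3.46 and 0.50 in the lymphoid organ. It stood at -1.63, -2.27 and -3.12 in hepatopancreas and -1.60, 1.59 and -2.37 in muscle, where muscle 3 did not detect it. Again the hemocyte arrays overlapped with no other tissue. Over the 3 probes, hemocytes were 56.2- to 65.8-fold above the average of the rest (highest adjusted p = 1.5e-05). The smallest of these hemocyte differences was 5.09 within slide 1 (AB073223.1, adjusted p = 0.0111) and the largest 6.68 within slide 2 (cluster018525, adjusted p = 0.00161).

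Hemocyte marker signal had the same order as the first group on some arrays outside hemocytes and another order on others. Muscle 2, which stood at 4.19 for AB073223.1 against 0.66 and 1.13 on the other muscle arrays, had a hemocyte marker sum of 44.8, against 8.38 and 5.98. Lymphoid organ 3 and gills 2 were lowest in their tissues both in level and in sum (65.2 and 37.6). The highest sums went with lower levels than the next array in 3 tissues. Lymphoid organ 1 had a sum of 363 and a level of 5.94, against 165 and 7.22 on lymphoid organ 2, and gills 3 had 145 and 5.03, against 110 and 6.63 on gills 1. Hepatopancreas 3 had a sum of 77.1 and a level of -1.36, against 62.0 and 1.56 on hepatopancreas 1. In these whole tissues fewer cells of a type and less RNA per cell cannot be told apart, and the part of hemocytes in the tissue signals was not tested. The muscle call of AB073223.1 (log2 difference -2.80, SE 0.85, adjusted p = 0.0155) was lost without gills 1, hemocytes 4 and muscle 1 (-1.94, adjusted p = 0.162), without muscle 1 (-2.14, adjusted p = 0.113) and without muscle 3 (-2.37, adjusted p = 0.0898). That of cluster018525 was lost without muscle 3 (-2.28, adjusted p = 0.0505), and without gills 1, hemocytes 4 and muscle 1 together that of cluster018525 (-2.57, adjusted p = 0.0572) and that of cluster018524 (-2.50, adjusted p = 0.0568) were lost too.

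The prophenoloxidase AB065371.1 stood at 3.40, 4.35, 5.11 and 4.06 on hemocyte arrays 1 to 4. It stood at -0.49, 0.39 and 0.08 in gills and 0.90, 0.03 and 0.11 in the lymphoid organ. Hepatopancreas gave -4.01 and -2.09 on arrays 1 and 3, neither detected, and -3.08 on array 4, and muscle gave -1.78, -0.32 and, not detected, -1.85. Every hemocyte array lay above every other array, while gills and lymphoid organ overlapped around the 75th percentile. Hemocytes were 37.8-fold above the average of the rest (log2 difference 5.24, SE 0.41, adjusted p = 1.34e-07), or 34.4-fold with undetected spots raised to the faintest detected signal on the same array. They were 18.9-fold above gills (adjusted p = 2.06e-05) and 14.8-fold above the lymphoid organ (adjusted p = 0.000146), and gills and lymphoid organ did not pass the test (-0.35, SE 0.58, adjusted p = 0.804). Its call as lower in muscle was lost without muscle 1 (-1.46, adjusted p = 0.0529), without muscle 3 (-1.43, adjusted p = 0.0583) and without gills 1, hemocytes 4 and muscle 1 together (-1.53, adjusted p = 0.0602).

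Its 3 partner contigs gave nearly the same picture. cluster019910 stood at 3.34, 4.41, 5.04 and 4.21 in hemocytes, -0.48, 0.50 and 0.22 in gills, and 0.90, 0.22 and 0.23 in the lymphoid organ. In hepatopancreas it stood at -2.06 (not detected), -1.66 and -3.32, and in muscle at -3.19 (not detected), -0.10 and -1.72 (not detected). Hemocytes 1 was the lowest and hemocytes 3 the highest hemocyte array for this probe, as for AB065371.1. cluster019948 stood at 3.51, 4.39, 5.11 and 4.16 in hemocytes, -0.59, 0.46 and 0.03 in gills, and 1.03, 0.17 and 0.23 in the lymphoid organ. It stood at -2.68 (not detected), -2.26 and -2.97 in hepatopancreas and at -3.31 (not detected), -0.75 and -2.29 (not detected) in muscle. cluster019949, whose hepatopancreas array 3 reached the 75th percentile, stood at 3.73, 4.51, 5.17 and 4.20 in hemocytes, -0.42, 0.52 and 0.22 in gills, and 1.18, 0.26 and 0.28 in the lymphoid organ. Its hepatopancreas arrays gave -2.44 (not detected), 0.03 and -2.93, and its muscle arrays -2.62 (not detected), -0.40 and -1.67. For each of the 3 the hemocyte arrays lay apart from all other arrays. Across the group of 4, hemocytes were 33.6- to 41.4-fold above the average of the rest (highest adjusted p = 1.02e-06), 18.0- to 20.1-fold above gills and 13.9- to 14.8-fold above the lymphoid organ. Against muscle alone, hepatopancreas differed by -0.21 to -1.74 log2 units over the 4 probes and was called lower for 1 (limma, highest adjusted p = 0.83). Against the mean of the other 4 tissues it was lower for all 4 probes, with log2 differences of -2.66 to -3.87 (highest adjusted p = 0.000987). Within slide 1, which holds 1 hepatopancreas array, those of the 3 contigs were not called (adjusted p = 0.0521 to 0.139), nor was that of cluster019949 within slide 2 (-2.37, adjusted p = 0.0777).

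The 2 hemocyte-enriched groups parted from each other among the arrays of a tissue. Hemocytes 3 was the lowest hemocyte array for the AB073223.1 group and the highest for the AB065371.1 group, and it had the lowest hemocyte marker sum of the 4 (933). In the lymphoid organ the AB073223.1 probe spread over 3.66 log2 units between arrays, from 3.56 on array 3 to 7.22 on array 2, while AB065371.1 stayed within 0.03 to 0.90. Muscle 2 was the highest muscle array for both groups. With 3 or 4 arrays a tissue, these differences among arrays are descriptions and were not tested.

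Prophenoloxidase b showed another order of tissues. AB617654.1 stood at -0.02, -0.09 and -1.90 on hepatopancreas arrays 1, 3 and 4, and at -3.76, -3.76 and -3.08 in the lymphoid organ. Muscle gave -1.94, -2.82 and -3.19, with muscle 3 not detected. Of the gill arrays only gills 1 (-2.52) and of the hemocyte arrays only hemocytes 4 (-0.26) detected it, and the other 5 arrays of these tissues read -4.66 to -7.43. Both of those arrays were among the 3 that stood apart by their hepatopancreas markers. Hepatopancreas had the highest mean, with a log2 difference of 3.26 from the mean of the other 4 (SE 1.07, adjusted p = 0.0206), or 5.82-fold with undetected spots raised. Without gills 1, hemocytes 4 and muscle 1 the difference was 4.02 (adjusted p = 0.00014), while the call was lost without hepatopancreas 1 (adjusted p = 0.0939) or hepatopancreas 3 (adjusted p = 0.0874) and within slide 2 (3.1, adjusted p = 0.218). Hemocytes minus hepatopancreas was -3.88 (SE 1.28, adjusted p = 0.0174) and gills minus hepatopancreas -4.33 (SE 1.37, adjusted p = 0.0214). Lymphoid organ minus hepatopancreas (-2.86, SE 1.37, adjusted p = 0.143) and hepatopancreas minus muscle (1.98, SE 1.37, adjusted p = 0.256) did not pass.

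The contig cluster030055 also had its highest mean in hepatopancreas. It stood at 0.46, -0.29 and -1.92 in hepatopancreas and -3.63, -3.43 and -3.24 in the lymphoid organ, was detected in gills on gills 1 alone (-2.90) and was detected on 0 of 4 hemocyte arrays (-4.70 to -7.51). Muscle gave -2.46, -3.05 (not detected) and 0.66, and muscle 3 was thus the highest of the 16 arrays. Hepatopancreas was at least 6.36-fold above the average of the rest (fitted log2 difference 3.64, SE 0.90, adjusted p = 0.0036), and hemocytes were at least 2.37-fold lower (-3.54, SE 0.81, adjusted p = 0.00196). The hemocyte call was lost when undetected spots were raised in the fit itself (-1.64, adjusted p = 0.0546). Lymphoid organ minus hepatopancreas (-2.85, SE 1.15, adjusted p = 0.0827) and hepatopancreas minus muscle (1.03, SE 1.15, adjusted p = 0.496) did not pass. Within slide 1 the hepatopancreas difference was 4.21 (adjusted p = 0.0281) and within slide 2 it was 2.95 (adjusted p = 0.0383). Such a bound sets each undetected spot to the faintest signal that its array detected, and log2 differences and p-values are as fitted. The call of cluster030055 as higher in muscle (2.35, adjusted p = 0.0476) was lost with slide as a block (adjusted p = 0.0654), within slide 1 (0.19, adjusted p = 0.863) and in 12 of the 16 fits that left out 1 array, with its lowest value without muscle 3 (1.21, adjusted p = 0.356). Hepatopancreas marker sums were 20629 to 106629 on hepatopancreas arrays, 8.24 to 55.4 in gills, 7.83 to 54.0 in hemocytes, 118 to 215 in the lymphoid organ and 28.2 to 188 in muscle, and their part in the prophenoloxidase b signals outside hepatopancreas was not tested. Hemocytes 3, with a sum of 44.98, was close to hemocytes 4, with 54.0, while AB617654.1 stood at -7.43 on hemocytes 3 and -0.26 on hemocytes 4.

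**Figure D3:**
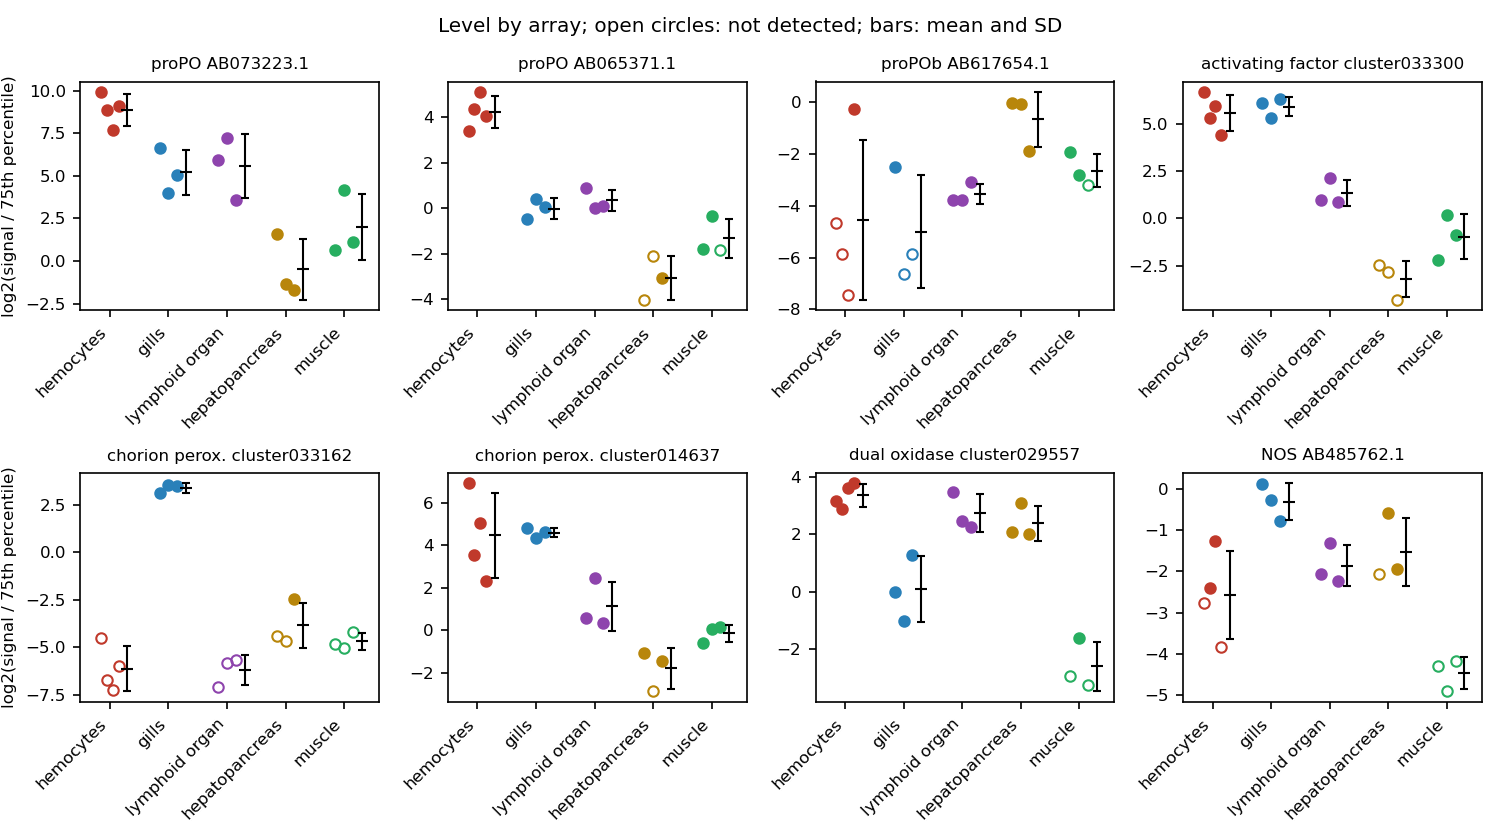
Level on each array (points) of 8 members by tissue, with the tissue mean and SD as bars and open circles for spots not detected. AB073223.1 and AB065371.1 are highest on the 4 hemocyte arrays, AB617654.1 on the hepatopancreas arrays and hemocytes 4, the activating factor cluster033300 and the chorion peroxidase cluster014637 in hemocytes and gills, and the chorion peroxidase cluster033162 on the 3 gill arrays.

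The phenoloxidase activating factor was high in hemocytes and gills alike. Such factors are clip-domain serine proteases, or inactive relatives of them, that act on prophenoloxidase at the end of the chain. cluster033300 stood at 6.67, 5.31, 5.91 and 4.40 on the hemocyte arrays and 6.10, 5.31 and 6.28 in gills. The lymphoid organ gave 0.97, 2.14 and 0.89 and muscle -2.17, 0.17 and -0.86, and no hepatopancreas array detected it (-2.47, -2.82 and -4.29). Hemocytes and gills overlapped, and both lay above all other arrays. Over the average of the rest, hemocytes were at least 27.2-fold higher (log2 difference 4.80, SE 0.48, adjusted p = 1.13e-06) and gills at least 36.1-fold higher (5.21, SE 0.53, adjusted p = 3.49e-06). The difference of hemocytes from gills was -0.33 (SE 0.63, adjusted p = 0.766), so the order of these 2 was not resolved. Hepatopancreas was at least 64.9-fold lower than the other tissues (-6.15, SE 0.53, adjusted p = 1.23e-07) and muscle 10.2-fold lower (-3.36, SE 0.53, adjusted p = 0.000113). Within slide 1, which holds 1 gill array, the gill difference was 5.08 but not called (adjusted p = 0.0875), and within slide 2 it was 5.39 (adjusted p = 0.00371). The muscle difference was not called within slide 2, which holds 1 muscle array (-2.93, adjusted p = 0.0878).

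In gills this probe parted from the prophenoloxidases. Hemocytes minus gills was -0.33 for cluster033300, whereas all 7 hemocyte-enriched prophenoloxidases were 12.7- to 20.1-fold higher in hemocytes than in gills (highest adjusted p = 0.0119). The hemocyte marker sum of the gill arrays was 37.6 to 145, against 933 to 2073 on hemocyte arrays. Among the gill arrays the level of the activating factor and that sum had the same order, with gills 3 highest and gills 2 lowest, and the part of hemocytes in the gill signal was not tested.

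The chorion peroxidases, whose insect namesakes cross-link the eggshell, were few among the detected probes and each tested one had a pattern of its own. Of the 6, 3 were tested. cluster014637 stood at 6.91, 3.53, 5.07 and 2.33 in hemocytes, 4.80, 4.35 and 4.64 in gills and 0.60, 2.45 and 0.32 in the lymphoid organ. Hepatopancreas gave -1.07, -2.87 (not detected) and -1.45, and muscle -0.59, 0.04 and 0.13. Hemocytes were thus spread over 4.58 log2 units, overlapping with gills and with lymphoid organ 2, while the 3 gill arrays lay within 0.45. Gills were 12.6-fold (log2 difference 3.68, SE 0.69, adjusted p = 0.00126) and hemocytes 11.2-fold (3.52, SE 0.62, adjusted p = 0.00025) above the average of the rest, with undetected spots raised, and hemocytes minus gills was -0.14 (SE 0.82, adjusted p = 0.931). Hemocytes 1, 3, 2 and 4 held the same descending order for this probe and for the activating factor. Without gills 1, hemocytes 4 and muscle 1, the differences were 3.35 in gills (adjusted p = 0.00747) and 4.19 in hemocytes (adjusted p = 0.000197), and within slide 1 the gill difference of 3.45 did not pass (adjusted p = 0.332). Its call as lower in muscle was lost without muscle 1 (-2.01, adjusted p = 0.0801) or muscle 2 (-2.33, adjusted p = 0.0501).

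The chorion peroxidase cluster033162 was detected in gills and almost nowhere else. It stood at 3.1, 3.56 and 3.48 on gill arrays 1 to 3. Gills were the only tissue in which every array detected it, so it entered the test through them. Its gill p-values are not separate from that entry. The hemocyte, lymphoid organ and muscle arrays, none of which detected it, read -4.18 to -7.27, and hepatopancreas gave -4.38, -4.67 and, on array 4 alone detected, -2.47. In readings as scaled, undetected spots included, the gill arrays lay 5.57 log2 units or more above every other array. Gills were at least 103-fold above the average of the rest (fitted log2 difference 8.58, SE 0.58, adjusted p = 3.25e-08), and their excess was at least 57.0-fold over hepatopancreas (7.22, SE 0.74, adjusted p = 1.29e-06) and at least 60.4-fold over muscle (8.05, SE 0.74, adjusted p = 8.82e-07). The differences were 8.44 within slide 1 (adjusted p = 0.0286) and 8.53 within slide 2 (adjusted p = 0.00082), and the lowest of the fits without 1 array was 8.47. Its calls as lower in hemocytes (-3.29) and in the lymphoid organ (-3.37) rest on undetected spots, with bounds of at least 2.30-fold and at least 2.58-fold. Both are set against a mean that includes the gill mean of 3.38. Within slide 1, with 1 gill array, the differences were -2.46 and -3.49, and both calls were lost. Within slide 2, with 1 lymphoid organ array, they were -4.15 and -2.94, and the lymphoid organ call was lost.

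The third tested chorion peroxidase, cluster008921, had similar means in 4 tissues and a lower one in muscle. It averaged -0.082 ± 1.45 in hemocytes (SD, n = 4), 0.63 ± 1.61 in gills, 0.35 ± 0.70 in the lymphoid organ, 0.47 ± 2.13 in hepatopancreas and -3.03 ± 0.92 in muscle (SD, n = 3 each), where 1 of 3 arrays detected it. The spread within hepatopancreas, from -1.95 on array 1 to 2.08 on array 3, exceeded the differences among the first 4 tissues. Muscle was 6.55-fold below the mean of the others with undetected spots raised (log2 difference -3.37, SE 0.81, adjusted p = 0.00357), and no pair of the other 4 tissues was called. Within slide 2, with 1 muscle array, the difference of -4.60 did not pass (adjusted p = 0.0866). Not tested were cluster005307, cluster005312 and cluster032312. Each was detected on 2 of 3 gill arrays, and the first 2 were detected on 0 of 4 hemocyte arrays and come from transcripts 1 and 3 of the same assembly locus. cluster005307 was also detected on 2 muscle arrays (-1.07 and -1.62), near its detected gill levels of -1.18 and -0.40. cluster005312 read -0.70 on gills 2 and -2.41 on gills 3, against -3.10 to -6.74 on all arrays outside gills.

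The dual oxidases and their maturation factor, a protein that brings the enzyme from the endoplasmic reticulum to the cell surface, shared calls in hemocytes and muscle but not in hepatopancreas. All 6 probes were higher in hemocytes, 5 were higher in the lymphoid organ and all 6 were lower in muscle. The shares over all tested probes were 18.8%, 6.42% and 18.4%. In hepatopancreas 4 were lower (23.4% of all tested probes were), 1 was higher (cluster029557, background 20.5%) and 1 was not called (cluster029567). In gills the differences were -0.42 to -1.38 and 0 were called (limma), with 2 of the 6 at an unadjusted p under 0.05. The 5 dual oxidase contigs carried neighbouring names (transcripts 81986 to 81996 of the locus described above), so their probes may share target sequence.

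cluster029557 stood at 3.15, 2.89, 3.60 and 3.77 on the hemocyte arrays, 0.00, -1.02 and 1.28 in gills and 3.48, 2.45 and 2.27 in the lymphoid organ. It stood at 2.06, 3.08 and 2.00 in hepatopancreas and at -2.93 (not detected), -1.61 and -3.24 (not detected) in muscle. Hemocytes, lymphoid organ and hepatopancreas overlapped, every gill array was below them and every muscle array below gills. Hemocytes were 6.0-fold above the average of the rest with undetected spots raised (log2 difference 2.70, SE 0.42, adjusted p = 7.47e-05) and 9.63-fold above gills (adjusted p = 0.00025). The lymphoid organ (1.93, SE 0.47, adjusted p = 0.0165) and hepatopancreas (1.49, SE 0.47, adjusted p = 0.016, lost without hepatopancreas 3 at 1.14, adjusted p = 0.112) were higher too, and the hepatopancreas call was lost within slide 1 (adjusted p = 0.291) and slide 2 (adjusted p = 0.115) as well. No pair among these 3 passed the test, with differences of 0.62 for hemocytes minus lymphoid organ (SE 0.56, adjusted p = 0.484), 0.97 for hemocytes minus hepatopancreas (SE 0.56, adjusted p = 0.155) and 0.35 for lymphoid organ minus hepatopancreas (SE 0.59, adjusted p = 0.711).

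In hepatopancreas cluster029557 parted from 3 of the other 4 dual oxidases. cluster029563, cluster029568 and cluster029570 were detected on 0 of 3 hepatopancreas arrays and were lower there, with fitted log2 differences of -1.75 to -2.55 (highest adjusted p = 0.00662). The call of cluster029570 was lost with arrays scaled on the probes detected on all 16 (-1.13, adjusted p = 0.0863), those of all 3 were lost within slide 1 (adjusted p = 0.198 to 0.414), and those of cluster029568 and cluster029570 were lost within slide 2 (adjusted p = 0.0615 and 0.059). cluster029567 was detected on all 3 hepatopancreas arrays (-1.63 to -2.31) with a difference of 0.10 (SE 0.65, adjusted p = 0.914). In hemocytes these 4 probes were detected on every array and averaged -0.23 to 0.11, in the lymphoid organ they were detected on every array and averaged -0.82 to -0.54, and in muscle they were detected on 0 of 3 arrays. Hemocytes exceeded the average of the rest for each of the 4, by fitted log2 differences of 2.21 to 3.27 (highest adjusted p = 0.00532), and were higher than gills by 2.49 to 3.52 (highest adjusted p = 0.0238). The hemocyte call of cluster029567 was lost within slide 1 (1.90, adjusted p = 0.0643) and within slide 2 (2.66, adjusted p = 0.0663). As bounds, the hemocyte excess over the mean of the other tissues was at least 3.20-fold for cluster029567 and at least 5.63-fold for cluster029570. Gills 3 was the highest gill array for all 5 dual oxidases, and hemocytes 1 was the lowest hemocyte array for these 4. The muscle calls of these 4 were lost when undetected spots were raised in this way in the fit (log2 differences of -0.82 to -1.21, adjusted p = 0.146 to 0.244), so they rest on signals below detection. That of cluster029563 was also lost without muscle 1 (-1.95, adjusted p = 0.0523) or muscle 2 (-1.97, adjusted p = 0.054).

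The maturation factor cluster000073 stood at -0.31, 0.31, 1.40 and 0.61 in hemocytes, -2.48, -2.75 and -1.46 in gills and 0.35, 0.02 and 0.60 in the lymphoid organ. It was detected on hepatopancreas 4 alone of that tissue (-3.59) and on 0 of 3 muscle arrays (-3.18 to -3.77). Hemocytes and lymphoid organ overlapped and both lay above all other arrays. Over the average of the rest, hemocytes were at least 4.97-fold higher (log2 difference 2.62, SE 0.37, adjusted p = 3.18e-05) and the lymphoid organ at least 4.27-fold higher (2.40, SE 0.41, adjusted p = 0.00149). For the 5 dual oxidases and this factor, hemocytes minus lymphoid organ was 0.18 to 0.79 with adjusted p = 0.393 to 0.850, and hemocytes minus gills was called for all 6. The lymphoid organ calls of 4 of these 5 probes were lost without lymphoid organ 1 (log2 differences of 1.55 to 2.02, adjusted p = 0.0625 to 0.159), of 3 without lymphoid organ 2 (highest adjusted p = 0.0866) and of cluster029568 without lymphoid organ 3 (adjusted p = 0.0557). With undetected spots raised in the fit, 3 of the 5 were lost (cluster029568 at 1.29, adjusted p = 0.131, cluster029570 at 1.56, adjusted p = 0.0551, and cluster029563 at 1.58, adjusted p = 0.0904). None of the 5 passed within either slide, where slide 2 holds 1 lymphoid organ array (the difference of cluster000073 was 2.46 within slide 1, adjusted p = 0.0702, and 2.58 within slide 2, adjusted p = 0.376).

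Nitric oxide synthase, AB485762.1, was the 1 member besides the activating factor and 2 chorion peroxidases that was higher in gills. It stood at 0.10, -0.27 and -0.78 in gills, against -2.07, -1.31 and -2.23 in the lymphoid organ. Hemocytes gave -2.77 (not detected), -2.41, -1.27 and -3.84 (not detected), hepatopancreas -2.07 (not detected), -0.60 and -1.95, and no muscle array detected it (-4.18 to -4.91). Gill arrays lay above all others except hepatopancreas 3, which overlapped with gills 3. Gills were at least 3.46-fold above the average of the rest (log2 difference 2.29, SE 0.49, adjusted p = 0.00351). Against single tissues gills passed over hemocytes, where hemocytes minus gills was -2.25 (SE 0.58, adjusted p = 0.00773), and over muscle (4.14, SE 0.62, adjusted p = 0.000128), but not over the lymphoid organ (1.55, SE 0.62, adjusted p = 0.144) or hepatopancreas (1.22, SE 0.62, adjusted p = 0.15). The gill difference was 2.84 within slide 1 (adjusted p = 0.142) and 2.03 within slide 2 (adjusted p = 0.161), neither of them called.

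The nitric oxide synthase-interacting protein cluster012949, which in mammals binds the endothelial form of the enzyme, did not share its pattern. It stood at 1.11, 1.80, 1.68 and 1.64 in hemocytes, 0.84, 0.97 and 0.67 in gills and 0.45, 0.87 and 0.82 in the lymphoid organ. Hepatopancreas gave -1.25, -1.04 and -0.80, and muscle 1.06, 1.74 and 1.57. Every array detected it, and the hepatopancreas arrays were the lowest 3. Hepatopancreas was 4.50-fold below the mean of the others (log2 difference -2.17, SE 0.29, adjusted p = 1.63e-05), with -2.34 within slide 1 (adjusted p = 0.0385) and -2.14 within slide 2 (adjusted p = 0.0229). Its call as higher in hemocytes, a log2 difference of 1.07 (SE 0.26, adjusted p = 0.00314), fell below 2-fold when arrays were scaled on the probes detected on all 16 arrays (0.75) or without hemocytes 2 (0.99), and was lost within slide 1 (1.04, adjusted p = 0.14), within slide 2 (1.09, adjusted p = 0.173) and without gills 1, hemocytes 4 and muscle 1 together (0.99). The other partner, cluster008659, described as a PDZ ligand of the neuronal enzyme, was detected only on gills 2 (-4.35) and hemocytes 3 (-4.18) and was not tested.

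Other genes of the pathway were counted from lists of words in the descriptions. Recognition proteins, which bind microbial sugars upstream of the protease chain, numbered 9 with 8 tested. In hemocytes 3 were higher and 3 lower, and in hepatopancreas 4 were higher and 2 lower, with medians of 0.27 and 2.04 against -0.041 and -0.34 over all tested probes. These are 37.5% higher and 37.5% lower in hemocytes, against 18.8% and 27.1% of all tested probes, and 50% higher and 25% lower in hepatopancreas, against 20.5% and 23.4%. The pattern recognition protein LGBP (EU267001.1) was higher in hemocytes (log2 difference 3.31, adjusted p = 0.00384) and lower in hepatopancreas (-2.76, adjusted p = 0.0225), and cluster023471, a beta-glucan-binding protein, was higher in hepatopancreas (10.29, adjusted p = 3.04e-06) and lower in hemocytes (-3.66, adjusted p = 0.00905). The masquerade-like protein cluster008596, an inactive serine protease relative, was the 1 recognition probe higher in gills (4.04, adjusted p = 0.0113).

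All 12 clip-type protease probes were tested, and 6 were higher and 5 lower in hemocytes, 5 higher in gills, 2 higher and 7 lower in hepatopancreas, 1 higher and 8 lower in muscle. The shares of this list were 50% and 41.7% in hemocytes, 41.7% in gills, 16.7% and 58.3% in hepatopancreas and 8.33% and 66.7% in muscle. Those over all tested probes were 18.8% and 27.1% in hemocytes, 9.15% in gills, 20.5% and 23.4% in hepatopancreas and 20.4% and 18.4% in muscle. The serine protease easter (cluster031630) had the largest difference in hemocytes (4.90), and a clotting factor b-like probe, cluster034708, the largest in gills (11.62, adjusted p = 7.78e-08) and the lowest in hemocytes (-4.68). The proclotting enzyme cluster023430 was higher in hepatopancreas (5.26, adjusted p = 5e-06) and lower in muscle (-5.88, adjusted p = 2.49e-06).

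The inhibitors that can restrain melanization (serpins, pacifastin-like and other serine protease inhibitors and alpha-2-macroglobulins, 34 of 38 tested) were divided in hemocytes, with 15 higher and 15 lower. Gills had 15 higher and 2 lower, the lymphoid organ 8 and 3, hepatopancreas 4 and 20, and muscle 2 and 20. In hemocytes that is 44.1% each way, against 18.8% and 27.1% of all tested probes, in gills 44.1% higher against 9.15%, and in hepatopancreas and muscle 58.8% lower against 23.4% and 18.4%. Their extremes were alpha 2-macroglobulin cluster015622, higher in hemocytes (6.83, adjusted p = 1.02e-07) and lower in hepatopancreas (-6.85, adjusted p = 9.39e-08), and alpha 2-macroglobulin cluster015598, higher in gills (8.56, adjusted p = 1.16e-08). The word list also took in Kazal-type inhibitors with no known part in melanization, such as cluster001865, higher in hepatopancreas (10.26, adjusted p = 2.51e-08) and lower in gills (-5.55, adjusted p = 4.82e-05).

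Enzymes that remove or make peroxide and superoxide (superoxide dismutases, catalases, glutathione peroxidases, peroxiredoxins and NADPH oxidases, 23 of 25 tested) had 3 higher and 8 lower in hemocytes, 6 and 1 in gills, 1 and 3 in the lymphoid organ, 4 and 5 in hepatopancreas, and 9 and 5 in muscle. In hemocytes (13% and 34.8%, against 18.8% and 27.1% of all tested probes) and in hepatopancreas (17.4% and 21.7%, against 20.5% and 23.4%) these shares lay near those of all probes. In gills 26.1% were higher against 9.15%, and in muscle 39.1% against 20.4%. The NADPH oxidase cluster021930, a relative of the dual oxidases, was higher in muscle (8.29, adjusted p = 4.56e-09) and lower in gills (-2.22, adjusted p = 0.00463). The selenium-dependent glutathione peroxidase cluster022665 was higher in gills (7.12, adjusted p = 8.3e-05). Hemocyanins, the copper oxygen carriers related to prophenoloxidase, were higher in hepatopancreas for 14 of 15 probes, with a median of 11.10, and lower in hemocytes for 14 and in gills for 14. The prophenoloxidase b pair also had its highest means in hepatopancreas. The 15 hemocyanin probes belong to the 44 hepatopancreas markers by which gills 1 and hemocytes 4 stood apart, so their sums are not separate evidence on these arrays. On gills 1 and hemocytes 4, the arrays of their tissues that detected AB617654.1, the summed hemocyanin signal was 11.05 and 21.7, against 1.51 and 8.14 on the other gill arrays and 0.96 to 7.86 on the other hemocyte arrays. On the lymphoid organ arrays the hemocyanin sum was 57.9 to 96.4, above that of hemocytes 4, while AB617654.1 stood at -3.08 to -3.76, below its level there.

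**Figure D4:**
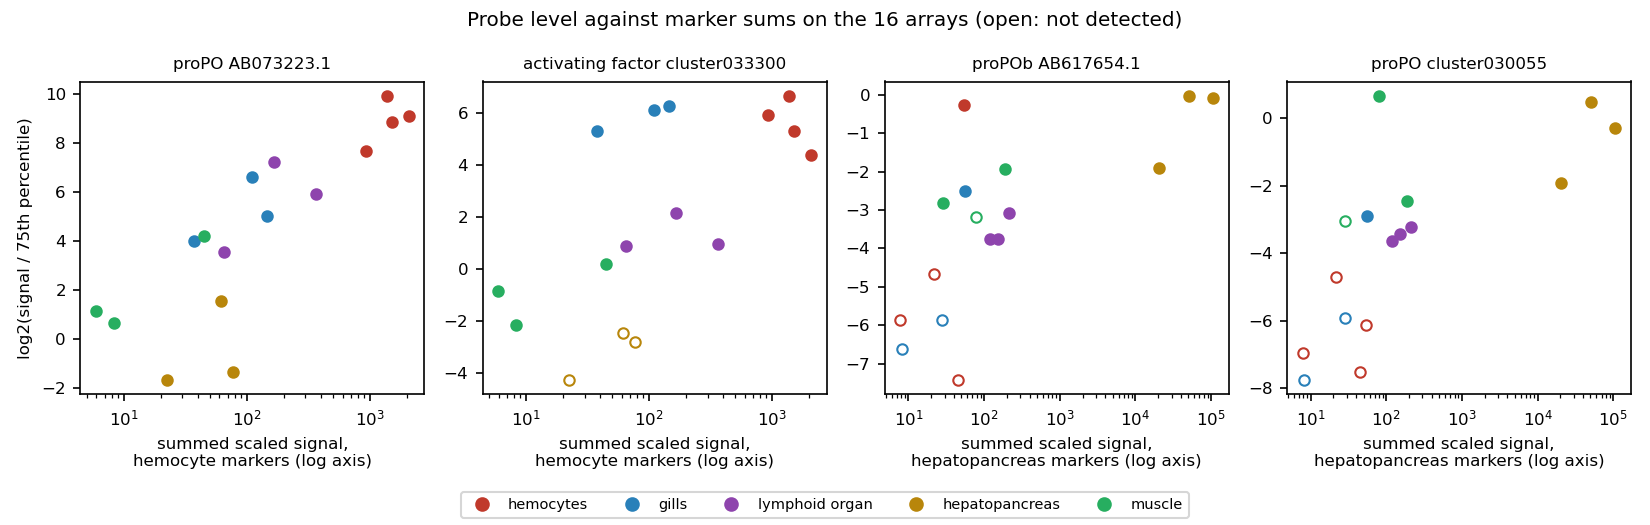
Level of 4 members (vertical axis) against the summed scaled signal of the hemocyte markers or the hepatopancreas markers (horizontal log axis) on the 16 arrays, coloured by tissue, with open circles for spots not detected. For AB073223.1 muscle 2, with the highest hemocyte marker sum of the muscle arrays (44.8), is also the highest muscle point, while lymphoid organ 1, with the highest sum of its tissue (363), lies below lymphoid organ 2, and for cluster033300 the 3 gill points lie level with hemocytes at marker sums of 37.6 to 145.

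For the member with the highest mean in each role, the non-member probes with the most similar tissue means were sought, as the smallest root mean square difference over the 5 tissue means, each centred on its own mean. Nearest to AB073223.1 were a single ib domain protein (cluster019573, 0.15 log2 units), a serine protease inhibitor (cluster030029, 0.17) and transglutaminase (AB162767.1, 0.19), the enzyme that cross-links the hemolymph clot. Nearest to the activating factor cluster033300 were a serine proteinase (cluster008450, 0.79), a charybde-like protein (cluster012826, 0.96) and an insulin-like growth factor-binding domain protein (cluster021275, 0.96). The chorion peroxidase cluster014637 was nearest to a proteasome subunit probe (cluster014638, 0.47), the same charybde-like protein (0.53) and a serine protease (cluster034694, 0.65). The dual oxidase cluster029557 was nearest to an RNA-binding protein 47-like probe (cluster002646, 0.47) and 2 ankyrin probes (cluster011223, 0.49 and cluster014079, 0.54). The maturation factor was nearest to a nucleotide-binding oligomerization domain protein (cluster005037, 0.13), nitric oxide synthase to a fatty acid ligase (cluster035219, 0.25) and the interacting protein cluster012949 to a bifunctional protein ncoat (cluster032426, 0.087). These distances describe 5 tissue means and carry no test.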

How the data were processed

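RNA of 5 tissues was labelled with Cy3 and hybridised to single-colour Agilent arrays, per the labels. The deposited intensities were processed signals made by Agilent Feature Extraction 10.7.3.1, per the submitters' processing notes, and the deposited table also gave detection flags, per the file headers. The deposited log2 values in the series matrix equalled the log2 signal less a constant for each array, namely its 75th percentile. Saturation flags and probe sequences were not used here.

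Signals were divided by the 75th percentile of the 13875 non-control probes of their array and log2-transformed, with compromised spots set to missing (no member spot was). The 60 control probes were left out. A probe was tested where every usable array of at least 1 tissue detected it (10317 tested, 3558 not, 21 of 25 members tested). limma 3.58.1 in R 4.3.3 fitted 5 tissue means over all 16 arrays (eBayes with a trend, residual df 11, prior df 5.36). Contrasts set every tissue against the average of the remaining 4 and against each of them singly (10 pairs). P-values were adjusted by Benjamini-Hochberg over all tested probes within a comparison. The fit was tested on simulated data. Tables and figures were made with Python 3.11.15, pandas 2.3.3 and matplotlib 3.10.9.

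Members, word lists and tests were chosen with earlier results of these data known. All members could be named, with every array's value for enriched members and for the member with the highest mean of each role. Pathway lists were named by their extreme called probes. Bounds raised undetected spots to the faintest detected signal on the same array. The number of arrays limits the precision.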

Additional observations from a re-analysis of the deposited data

How the results depend on the processing

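No member call changed direction under any alternative, and under quantile normalization and array weights 63 of the 63 member calls passed. The authors' matrix values also gave all 63, but they carry the same 75th percentile scaling as the main fit, so that outcome was fixed beforehand. Common-probe scaling, which moved the median of all tested probes by 0.62 in hepatopancreas, -0.47 in muscle, -0.32 in hemocytes and 0.13 in gills, lost 3 calls (cluster012949 in hemocytes, cluster029570 in hepatopancreas and cluster030055 in muscle), and quantile normalization moved it by -0.23 in hepatopancreas and 0.14 in hemocytes. A floor at the lowest detected signal lost 10 (6 in muscle, 3 in the lymphoid organ and cluster030055 in hemocytes), so such calls of dim members are limited by signal over background. Counts of called members (higher, then lower) moved as follows, given without the matching shares over all probes. Slide 1 holds 1 gill and 1 hepatopancreas array, and slide 2 holds 1 lymphoid organ and 1 muscle array. With 1 probe per description the counts were 3 and 0 in gills, 8 and 0 in hemocytes, 2 and 7 in hepatopancreas, 2 and 0 in the lymphoid organ, and 0 and 8 in muscle, with 64 pair calls and 3 enriched. All 30 main calls of the probes kept passed there. The number of members kept is not given, so these counts cannot be set beside the main counts of called members. Within slide 1 they were 1 and 0 in gills, 14 and 2 in hemocytes, 2 and 6 in hepatopancreas, 0 and 0 in the lymphoid organ, and 0 and 12 in muscle, with 64 pair calls and 2 enriched. Within slide 2 they were 4 and 1, 14 and 2, 1 and 10, 0 and 0, and 1 and 3 in the same tissues, with 65 pair calls and 6 enriched. Without gills 1, hemocytes 4 and muscle 1, a set chosen after the data were seen, they were 5 and 2, 15 and 4, 3 and 14, 5 and 1, and 2 and 13, with 120 pair calls and 9 enriched. Muscle had 0 higher with common-probe scaling, the floor or slide as a block, and 2 with no fold threshold. The floor gave 2 lower in gills, 1 lower in hemocytes and 2 higher in the lymphoid organ. With no detection filter 4 were lower in hemocytes, and in gills 1 was lower with array weights and 2 with quantile normalization. Leaving out 1 array gave 4 to 5 and 0 to 3 in gills, 15 to 16 and 2 to 3 in hemocytes, 1 to 3 and 14 in hepatopancreas, 1 to 6 and 1 to 2 in the lymphoid organ, and 0 to 1 and 13 to 18 in muscle, with 116 to 132 pair calls and 7 to 9 enriched. Deviations of same-numbered arrays of different tissues correlated at r -0.41 to 0.40 (27 pairs, median 0.021, 8 over 0.1). Those of differently numbered arrays correlated at r -0.28 to 0.34 (75 pairs, median -0.021, 17 over 0.1). With 3 or 4 arrays a tissue, these values cannot tell whether same-numbered arrays share an animal. The replicate block gave 1 higher member in hepatopancreas against 3 and lost 2 of 63 calls, among them AB617654.1 there (adjusted p = 0.0872). Where no cause is shown by the setting itself, the cause was not tested.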
